A study of Mus musculus with 7 samples.

Results

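The genes described here encode the proteins of the mitochondrial ribosome. They were taken by name: every row of the deposited table whose symbol begins with Mrpl or Mrps followed by a digit, 76 of 23038 genes. Mitochondria make a few core subunits of the respiratory chain from their own genome, and the ribosome that translates them is built from mitochondrially encoded rRNA and from proteins that are encoded in the nucleus, made in the cytosol and imported. Mrpl genes encode large-subunit proteins, which carry the peptidyl transferase centre and the exit tunnel, and Mrps genes encode small-subunit proteins, which bind the mRNA and read its codons. Haematopoietic stem cells (HSCs), which sustain blood formation, rely little on respiration while quiescent, and mitochondrial activity increases when they divide and differentiate.

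Gene expression was measured by RNA-seq in HSCs of C57BL/6 mice, sorted from hindlimb bone marrow of adults as Lineage- Sca1+ cKit+ CD150+ CD48- cells, 150 cells per library, with libraries made by Smart-seq2, a full-length cDNA method for small inputs. The 4 mutant libraries came from Mx1-cre; Mettl3 fl/fl mice, in which the interferon-responsive Mx1 promoter drives Cre in blood cells and in other tissues that respond to interferon, and the 3 control libraries from Cre-negative mice. Mice of both groups received 5 injections of 10 µg pIpC, the double-stranded RNA that induces the Mx1 promoter, and were analysed 10 days after the last one. The design asks which transcripts differ in HSCs after loss of Mettl3, which encodes the methyltransferase that writes N6-methyladenosine on mRNA.

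The table holds 1 RPKM value per gene and group (reads scaled to gene length and to library size), called the group mean here, since how the libraries of a group were combined is not stated. There is therefore no spread between animals, no test, SD or standard error is given, and no difference below has a replicate check. Differences are given as log2((mutant + 1) / (control + 1)) in RPKM, and folds as plain ratios of the 2 means. Genes at least 1.5-fold or 2-fold apart on the log2 scale were counted, a rule of size. Mettl3 itself was at 49.8 RPKM in the control mean and 9.60 RPKM in the mutant mean. HSC markers were present in both groups, with Ly6a (Sca1) at 152 and 167 RPKM and Slamf1 (CD150) at 25.9 and 27.1 RPKM, although Kit was at 67.4 and 39.9 RPKM and Hlf at 19.3 and 11.9 RPKM. Of 5 monocyte and macrophage markers in the table, 4 had reads and summed to 28.5 RPKM in the control mean and 111 RPKM in the mutant mean. Cd68 made up most of that sum, at 26.4 and 108 RPKM, and the defining receptor gene Csf1r had no reads in either group. Granule genes summed to 276 and 370 RPKM, nearly all of it Prtn3, with Ctsg without reads, and erythroid genes to 27.3 and 36.5 RPKM, with Hba-a1 without reads. Of the B lymphoid genes only Cd79b had reads (132 and 133 RPKM), and the 4 megakaryocyte markers summed to 199 and 205 RPKM. Of genes the sort should exclude, 4 had reads, 2 of them higher and 2 lower, and summed to 6.51 and 5.79 RPKM. Cd48 made up most of that sum, at 5.33 and 4.04 RPKM, while the myeloid gene Itgam was at 0.727 and 1.65 RPKM. The part of these cells in the differences below was not tested, and in sorted bulk samples fewer cells of a type cannot be told apart from less RNA per cell.

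All 76 genes had reads, and each exceeded 10 RPKM in both groups. In controls they ran from 11.1 RPKM for Mrps36 to 364 RPKM for Mrpl42, a 32.9-fold range, with a median of 89.2 RPKM. In mutants they ran from 10.9 RPKM for Mrpl23 to 332 RPKM for Mrpl12, with a median of 106 RPKM. Between the control and the mutant mean the genes largely held their order (Spearman rho 0.93 across the 76 genes, a description, since genes are not replicates and share libraries). Transcript levels of proteins that occur in a common particle were thus spread widely in both groups: 32 genes were at 100 RPKM or above in controls, 23 between 50 and 100 RPKM and 21 below 50 RPKM.

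The 5 genes with the highest control level all encode large-subunit proteins. Mrpl42, a mitochondria-specific protein, was at 364 RPKM in the control mean and 313 RPKM in the mutant mean. Mrpl28 was at 323 and 317 RPKM, Mrpl18, a homologue of the bacterial protein that binds 5S rRNA, at 277 and 255 RPKM, and Mrpl30 at 252 and 257 RPKM. Mrpl12, which forms the flexible stalk that recruits translation factors, was at 241 and 332 RPKM. Of these, Mrpl12 alone differed by more than 1.25-fold. The 5 lowest in controls were Mrps36 (11.1 and 11.4 RPKM), Mrpl1 of the L1 stalk (11.7 and 14.6 RPKM), Mrps22 (12.7 and 11.8 RPKM), Mrps31 (15.6 and 17.1 RPKM) and Mrpl23 (17.8 and 10.9 RPKM). Mrps36 carries a ribosomal name, but its product is now known as a subunit of the oxoglutarate dehydrogenase complex and is counted below in neither subunit.

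**Figure D1:**
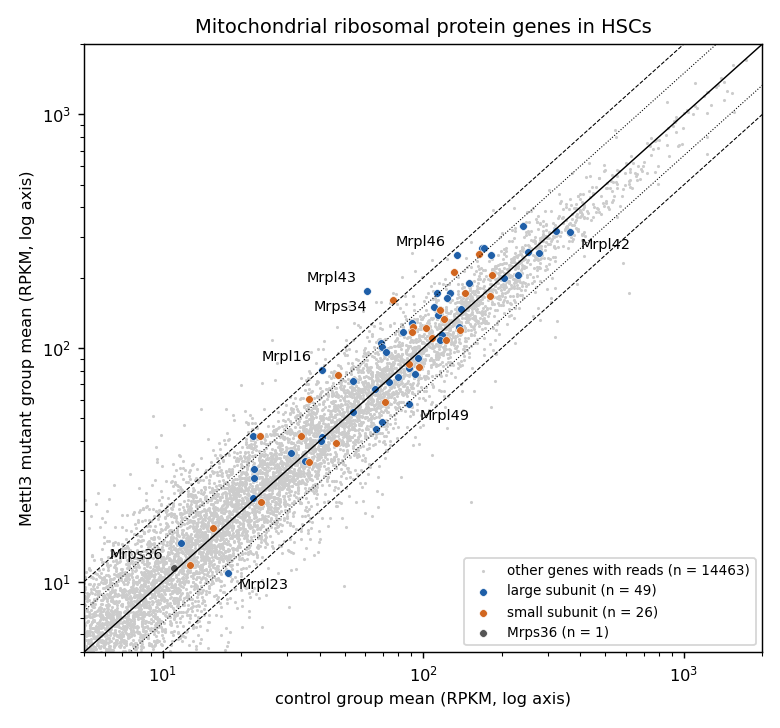
Control group mean (x) against Mettl3 mutant group mean (y), both in RPKM on log axes, for the large-subunit (blue), small-subunit (orange) and other genes; the solid line marks equal means, dotted lines a 1.5-fold and dashed lines a 2-fold ratio. The mitoribosomal genes lie along the line of equal means, with Mrpl43 and Mrps34 above the upper dashed line and Mrpl23 and Mrpl49 below the lower dotted line.

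The mitoribosomal genes were more often higher than lower in the mutant mean. Of the 76, 46 were higher (52.6% of the 14539 genes with reads in at least 1 group were, and 52.8% of the 6607 genes with at least 10 RPKM in 1 group) and 30 were lower. Their median log2 ratio was 0.13, against 0.02 over the genes with reads and 0.03 over those of at least 10 RPKM, and their summed level was 7686 RPKM in the control mean and 8963 RPKM in the mutant mean, a ratio of 1.17. Over the 53 members whose exons overlap those of no other coding gene the median was 0.04, with 31 higher and 22 lower, and 15.1% at least 1.5-fold higher. Most differed little: 43 were less than 1.25-fold apart. At least 1.5-fold higher in the mutant mean were 14 genes (18.4% of 76; background 13.0% of the genes with reads and 13.3% of those of at least 10 RPKM), and 2 were at least 1.5-fold lower (2.63%; background 10.4% and 8.58%). At least 2-fold higher were 2 genes (2.63%; background 3.67% and 3.36%), so this share was near the background, and none was 2-fold lower (background 3.47% and 2.47%).

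Since abundant genes in this table were less often far apart than weakly expressed ones, the counts were also set beside genes of a like level. With ranges set on the average of the 2 means, 38 mitoribosomal genes lay from 100 to 400 RPKM, of which 8 (21.1%) were higher by 1.5-fold or more and 0 lower by as much, against 4.91% and 4.74% of the 1140 genes of that range. The medians were 0.30 and -0.03. Some genes, Mrpl43 and Mrps34 among them, enter that range through their mutant value alone. With ranges set on the control mean, chosen after seeing the data, 32 members lay from 100 to 400 RPKM, and 6 (18.8%) were higher by that much and 0 lower, against 2.77% and 7.14% of 1120 genes, with medians of 0.21 and -0.07. All 6 had control levels below 200 RPKM, and the 7 members from 200 to 400 RPKM had a median of -0.03, against -0.09 for 373 genes. Exons of Mrpl46, Mrps7 and Mrpl14, which are among the 6, overlap those of another coding gene. The same holds for Mrpl43 and Mrps34 of the first range. The comparison by level was not repeated without overlapping members.

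The lower ranges lay nearer the background. From 50 to 100 RPKM by the average of the means, 3 of 19 members (15.8%) were higher by 1.5-fold or more and 1 (5.26%) lower, against 10.2% and 6.91% of 1202 genes, with medians of -0.05 and 0.03. From 10 to 50 RPKM the members' counts were again 3 and 1 of 19, against 14.99% and 8.69% of 3715 genes, with medians of 0.04 and 0.06. By the control mean, 3 of 23 members (13.0%) from 50 to 100 RPKM were higher by 1.5-fold or more, against 6.95% of the 1180 genes of that range. From 10 to 50 RPKM by the control mean 5 of 21 (23.8%) were, against 12.6% of the 3664 genes of that range. These shares describe 2 group means and are not a test.

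The gene farthest apart was Mrpl43 (NCBI Gene 94067, chromosome 19, 45004829 to 45006442, minus strand, GRCm38), which encodes a mitochondria-specific large-subunit protein with a thioredoxin-like fold. It was at 61.0 RPKM in the control mean and 175 RPKM in the mutant mean, 2.87-fold higher, a log2 ratio of 1.51. Mrps34 (chromosome 17, 24895116 to 24896289, plus strand), a mitochondria-specific small-subunit protein needed for the stability of that subunit, was at 76.4 and 161 RPKM, 2.11-fold higher, a log2 ratio of 1.06. These were the only members past 2-fold, and exons of both overlap those of a neighbouring gene, described at the end. Mrpl16, whose bacterial homologue sits beside the peptidyl transferase centre, was at 40.9 and 80.6 RPKM, 1.97-fold higher by the ratio of means. Mrpl46, which lies in the central protuberance of the large subunit, was at 135 and 251 RPKM and had the largest log2 ratio, 0.89, among members above 100 RPKM in controls. Mrpl50 was at 22.3 and 42.0 RPKM, and Mrps2, Mrps23 and Mrps6 of the small subunit were at 23.6 and 42.0, 36.5 and 60.7, and 46.9 and 76.5 RPKM.

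Another 6 genes lay between 1.5-fold and these 8. Mrps12, the homologue of the protein of the bacterial decoding centre in which streptomycin resistance arises, was at 131 RPKM in the control mean and 212 RPKM in the mutant mean. Mrps7, an rRNA-binding protein of the small-subunit head, was at 164 and 254 RPKM. Mrpl20 was at 169 and 267 RPKM, Mrpl54 at 171 and 267 RPKM, Mrpl51 at 68.8 and 105 RPKM and Mrpl14 at 113 and 171 RPKM. The 14 genes therefore came from both subunits, 8 large and 6 small, and their control levels ran from 22.3 to 171 RPKM.

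Only 2 members were at least 1.5-fold lower. Mrpl23 (chromosome 7, 142533012 to 142540747), which encodes a protein at the exit of the peptide tunnel, was at 17.8 RPKM in the control mean and 10.9 RPKM in the mutant mean, 1.63-fold lower. Mrpl49 was at 87.9 and 57.8 RPKM, 1.52-fold lower, and came just short of the 1.5-fold mark when both columns were scaled to the same sum. Next came 2 homologues of bacterial large-subunit proteins, Mrpl9 at 69.7 and 48.1 RPKM and Mrpl47 at 65.6 and 45.2 RPKM. The lowest small-subunit gene was Mrps27, with pentatricopeptide repeats, at 71.4 and 58.6 RPKM, a log2 ratio of -0.28, and beside it stood Mrpl21 at 93.3 and 77.4 RPKM and Mrps9 at 46.4 and 39.3 RPKM. All 4 genes with a log2 ratio below -0.5 thus belong to the large subunit, which holds 49 of the 76 genes. No small-subunit gene was 1.25-fold lower. Exons of Mrpl49, Mrpl9 and Mrpl47 overlap those of another coding gene on the other strand. For Mrpl47 these are Ndufb5 (616 bases, 199 and 203 RPKM) and Actl6a (452 bases, 162 and 174 RPKM), so its values may hold reads of those genes.

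**Figure D2:**
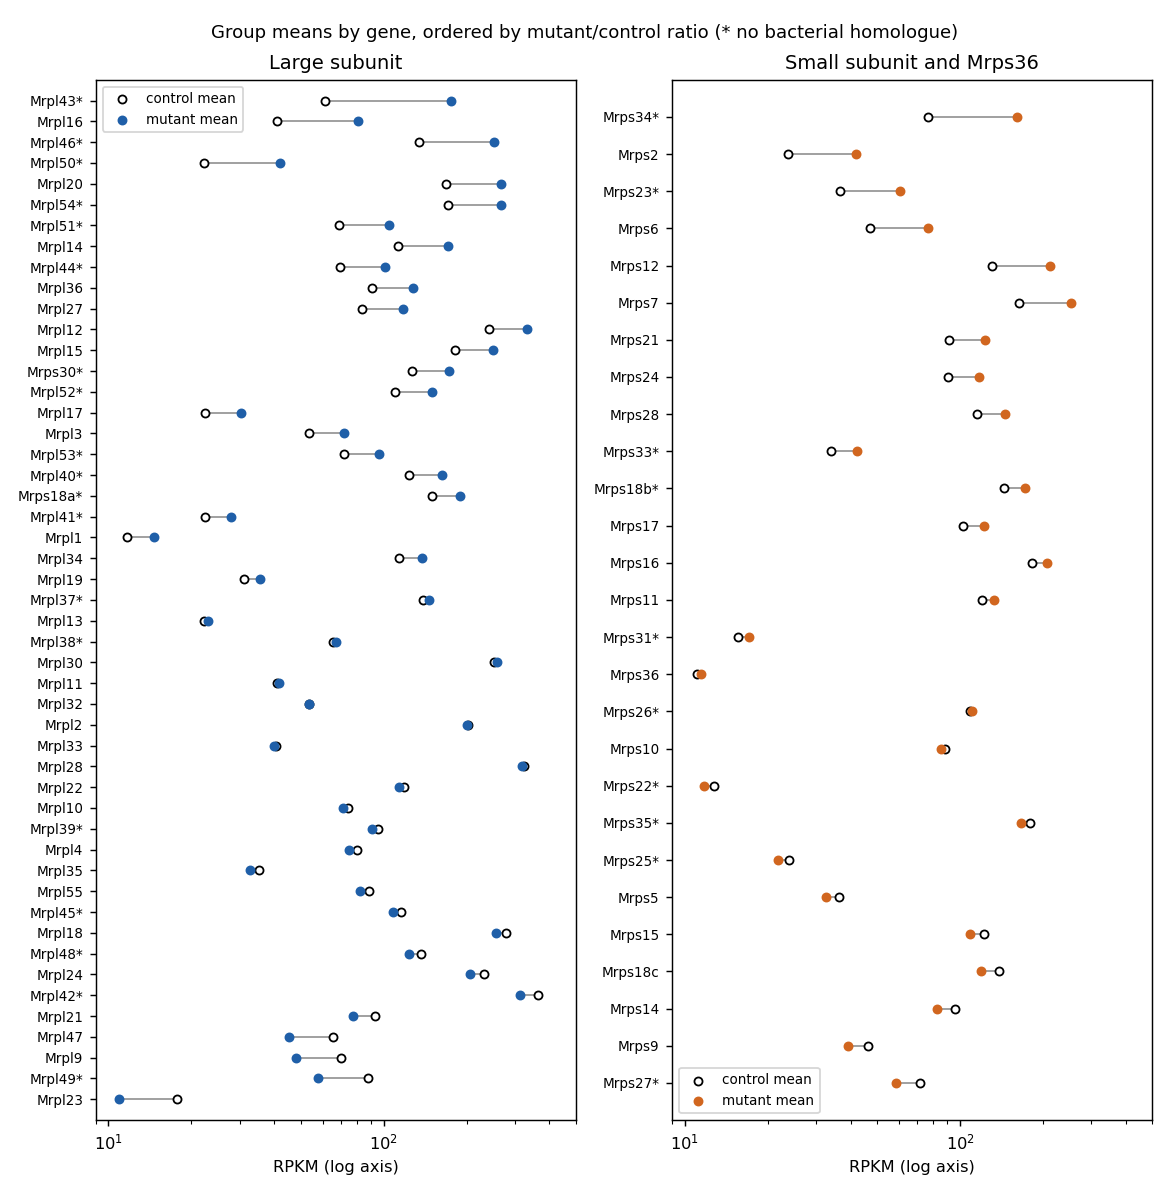
Control mean (open circles) and mutant mean (filled circles) of each of the 76 genes in RPKM on a log axis, large subunit on the left, small subunit and Mrps36 on the right, ordered from top to bottom by falling log2 ratio; an asterisk marks ribosomal proteins without a bacterial homologue. The lines between the circles are longest for Mrpl43 and Mrps34 at the top and short through the middle of both panels, where Mrpl32 was at 53.6 and 53.3 RPKM.

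By the unified nomenclature of ribosomal proteins, 49 of the genes encode large-subunit and 26 small-subunit proteins, Mrps30 and Mrps18a being large-subunit proteins despite their symbols. The large subunit had 29 genes higher and 20 lower, with a median log2 ratio of 0.07, and the small subunit 16 higher and 10 lower, with a median of 0.16. Proteins with a bacterial homologue had a median of 0.04 over 46 genes, with 25 higher, and mitochondria-specific proteins, which were added to the particle after its bacterial ancestor, a median of 0.30 over 29 genes, with 20 higher. The split differed between the subunits. In the large subunit the 19 mitochondria-specific genes had a median of 0.40 with 14 higher, and the 30 conserved ones a median of 0.01 with 15 higher and 15 lower. In the small subunit the order was the opposite, 0.07 over 10 mitochondria-specific and 0.21 over 16 conserved genes. Over all genes with reads 52.6% were higher. Both classes include members with exon overlap, Mrpl43, Mrpl46 and Mrps34 among the mitochondria-specific and Mrps7, Mrpl14 and Mrps6 among the conserved. The split was not tested and not repeated without them.

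The Mrps18 genes encode 3 related proteins that sit at different places, Mrps18b and Mrps18c in the small subunit and Mrps18a in the large. Mrps18a was at 149.8 RPKM in the control mean and 189 RPKM in the mutant mean, Mrps18b at 144 and 172 RPKM and Mrps18c at 139 and 119 RPKM. Their control levels were close to each other, and in mutants Mrps18c was the lowest of them. Mrps30, the other large-subunit protein with a small-subunit symbol, was at 126 and 172 RPKM.

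A further 7 mitoribosomal proteins are listed under other symbols, so the naming rule did not take them. They had a median log2 ratio of 0.54, with 5 of 7 higher. By at least 1.5-fold 1 (14.3%) was higher, against 13.0% of the genes with reads. Ict1, a peptidyl-tRNA hydrolase built into the large subunit and now called Mrpl58, was at 110 RPKM in the control mean and 189 RPKM in the mutant mean, the 1 gene of the 7 that was at least 1.5-fold apart on the pseudocount scale. Gadd45gip1 was at 57.9 and 86.5 RPKM, Mrp63, now called Mrpl57, at 19.7 and 29.7 RPKM, and Chchd1 at 159 and 213 RPKM. Dap3, a GTP-binding protein of the small subunit, was the lowest, at 47.9 and 36.8 RPKM.

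Among 23 factors that assemble the mitoribosome, 17 were higher in the mutant mean (52.6% of the genes with reads were). The median log2 ratio was 0.10. By at least 1.5-fold, 4 (17.4%) were higher and 1 (4.35%) lower, against 13.0% and 10.4% of the genes with reads. Rnmtl1 (also Mrm3), a methyltransferase of the large-subunit rRNA, was at 27.4 RPKM in the control mean and 86.2 RPKM in the mutant mean, 3.14-fold higher, farther apart than any member. Mrm1, another methyltransferase of that rRNA, was lower, at 23.0 and 14.1 RPKM. Of 14 mitochondrial translation factors 11 were higher (median 0.32), 2 of them (14.3%) by at least 1.5-fold, and 0 were that far lower. The elongation factor-like GTPase gene Guf1 was at 21.2 and 33.5 RPKM, and Mtrf1l, a release factor gene, at 11.3 and 8.48 RPKM. Of 19 mitochondrial aminoacyl-tRNA synthetases 11 were higher (median 0.13), 3 of them (15.8%) by at least 1.5-fold, and 2 (10.5%) were that far lower. Among them Nars2 was at 11.4 and 17.8 RPKM and Sars2, the seryl-tRNA synthetase gene, at 24.8 and 15.8 RPKM.

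Of 3 genes of mitochondrial transcription in the table, the polymerase gene Polrmt was at 11.03 and 6.94 RPKM, Tfb2m at 8.33 and 5.80 RPKM, and Tfam, which packages mitochondrial DNA, at 27.2 and 31.7 RPKM. Of 10 transcription factors and coactivators known to control nuclear genes of mitochondria, 4 were higher and 6 lower (median log2 ratio -0.06), and 0 were 1.5-fold apart. Yy1 was at 8.75 and 11.7 RPKM, Myc at 158 and 134 RPKM, Nrf1 at 9.83 and 9.18 RPKM and Gabpa at 19.5 and 19.1 RPKM.

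Beside the mitoribosomal genes stand 2 lists of nearly the same size. Cytosolic ribosomal protein genes had a median log2 ratio of 0.04 over 76 genes with reads, with 50 higher, 2 of them by at least 1.5-fold, and 0 that far below. The 2 were Rpl27a, at 43.6 RPKM in the control mean and 75.7 RPKM in the mutant mean, and Rpl31, at 24.8 and 40.5 RPKM, and the lowest ratio was that of Rps13, at 22.1 and 16.3 RPKM. Nuclear genes of the respiratory chain and ATP synthase, whose products assemble with those the mitoribosome makes, had a median of 0.02 over 78 genes, with 42 higher, 3 of them by at least 1.5-fold, and 0 that far below. Their ratios ran, among genes of at least 10 RPKM, from Uqcrc1 (984 and 743 RPKM) to Uqcrfs1 (109 and 175 RPKM), both subunits of complex III. Summed levels of these lists differed by a ratio of 1.02 and 0.99, against 1.17 for the mitoribosomal genes. The interquartile range of the log2 ratios ran from -0.10 to 0.45 in the mitoribosomal genes, the widest of the 3 lists. It ran from -0.03 to 0.18 in the cytosolic ribosome and from -0.10 to 0.18 in the respiratory chain. Over all genes with reads it ran from -0.26 to 0.32, and over those of at least 10 RPKM from -0.24 to 0.33. The mitoribosomal range was thus no wider than that of genes in general. The mitoribosomal median was the highest of the 3 lists over all 76 genes. Over the 53 without exon overlap it was 0.041, close to the 0.044 of the cytosolic ribosome. The other 2 lists were not filtered for exon overlap, so these 2 medians are not a like comparison. The difference between lists was not tested, and genes of a list may vary together between animals.

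**Figure D3:**
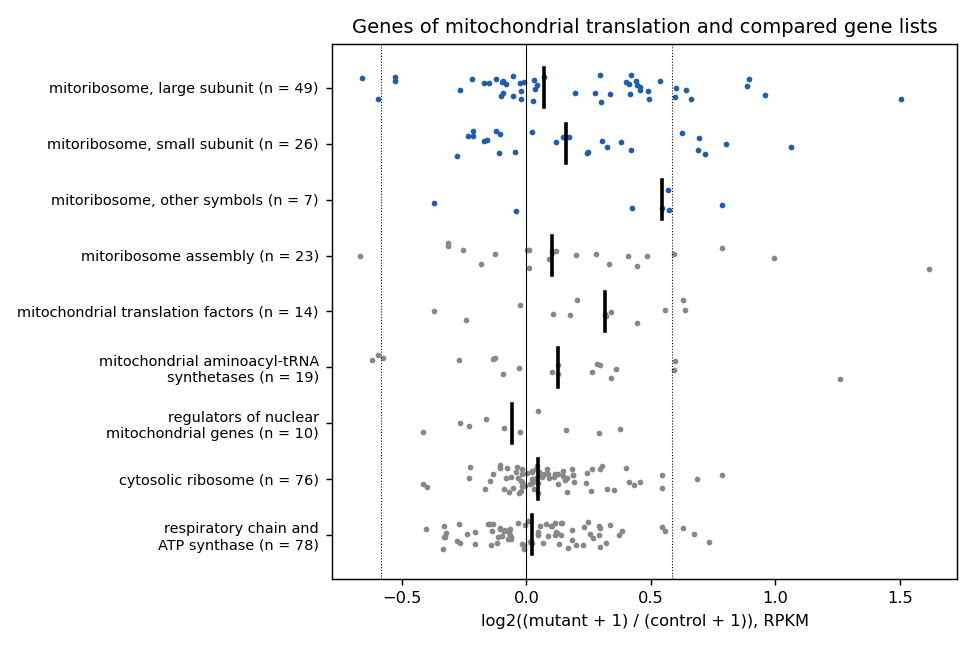
Log2 ratio of each gene (points) by list, with the list median (black bar), a line at 0 and dotted lines at 1.5-fold; n is the number of genes with reads. The large-subunit and small-subunit lists (blue) reach farther to the right than the cytosolic ribosome and the respiratory chain, whose points gather around 0. The mitoribosomal list of other symbols, also blue, ends level with the cytosolic ribosome.

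Many mitoribosomal genes begin next to another gene. Of the 76, 25 (32.9%) had a coding gene on the other strand whose start lay from 200 bp past to 1000 bp before their own in GENCODE M21, against 979 (15.3%) of 6416 genes of at least 10 RPKM and 11.5% of 13448 genes with reads. They made 24 pairs, since Mrpl46 and Mrps11 begin 30 bp apart and form a pair of members. Mrpl46 was at 135 RPKM in the control mean and 251 RPKM in the mutant mean, while Mrps11 was at 120 and 133 RPKM, so genes with adjacent starts differed in their ratio. This pair shares 173 bases of exon on opposite strands, where reads may not be told apart, a limit described below. Mrpl43 begins 116 bp from Peo1 (also Twnk), the helicase of mitochondrial DNA, which was at 28.1 and 41.7 RPKM, and both were higher in the mutant mean. Mrps12 begins 232 bp from Sars2, and these differed in opposite directions, 131 and 212 RPKM against 24.8 and 15.8 RPKM. In the 23 pairs with reads from both genes, 9 had both genes higher, 5 both lower and 9 had 1 of each. The mitoribosomal gene had the higher control level in 19 of the 23.

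**Figure D4:**
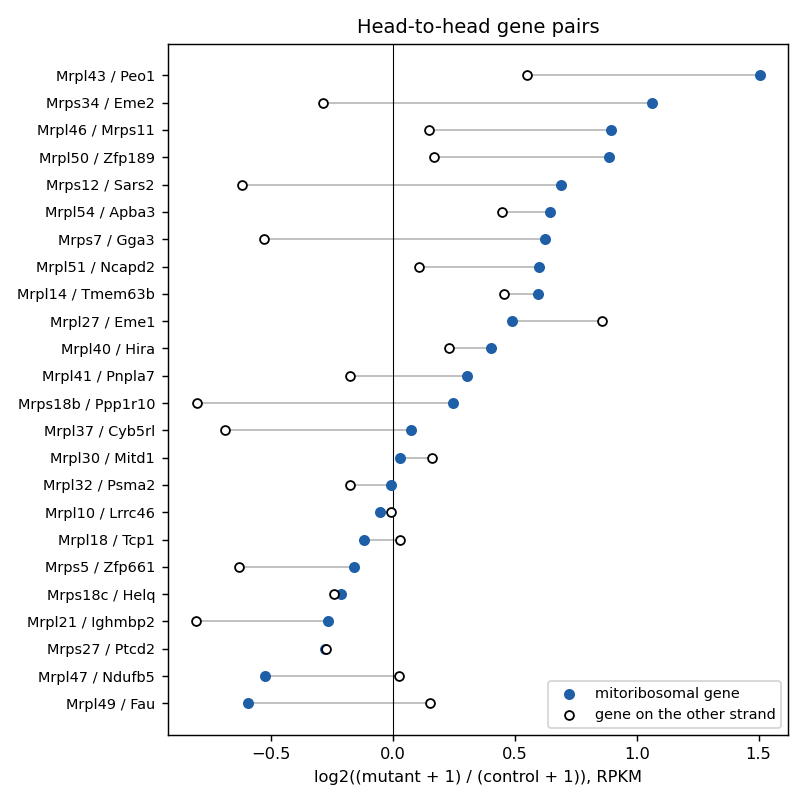
Log2 ratio of the mitoribosomal gene (filled) and of the gene that begins beside it on the other strand (open) in 24 pairs, ordered by the former, with a line at 0. In Mrps34, Mrps12 and Mrps7 the circles lie on opposite sides of 0, and in Mrpl43, Mrpl54 and Mrpl14 on the same side; Lrrc46 had no reads.

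Promoter windows of 300 bases (250 before to 50 after the start, RefSeq, GRCm38.p6) were found for 67 of the 76 genes. They were searched on both strands for the letters of motifs that recur in promoters of nuclear mitochondrial genes. The ETS letters CCGGAAG, bound by GABP and its relatives, were in 23 windows (34.3%), against 23.4% of the windows of 5235 genes of at least 10 RPKM and 9.12% of all 27025 windows. The NRF1 letters GCATGCGC were in 8 (11.9%), against 6.44% and 2.80%, and the YY1 letters AAGATGGCG in 8 (11.9%), against 4.24% and 1.49%. The E-box CACGTG, bound by MYC and others, was in 5 (7.46%), against 11.3% and 7.24%, and TATAAA in 4 (5.97%), against 6.82% and 14.2%. Matches of the ETS and YY1 letters can share bases with each other, and NRF1 matches on the 2 strands can as well. The median log2 ratio was 0.31 in the 23 genes with the ETS letters and 0.03 in the other 44, and -0.04 in the 8 genes with the NRF1 letters and 0.17 in the other 59. With the YY1 letters it was 0.11, and 0.12 without. With the E-box it was 0.07 in 5 genes and 0.13 in the other 62. With TATAAA it was 0.64 in 4 genes, Mrpl46 among them, and 0.04 in the other 63. A part of the motifs in the differences was not tested.

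The windows of 5 genes are shown because they carry these cases: the gene farthest apart (Mrpl43), starts shared with another gene (Mrpl43, Mrpl46 and Mrps12), the window with the most NRF1 matches (Mrpl32) and one with ETS and YY1 letters together (Mrps18a). Each runs 5′ to 3′ along the gene, with the motif letters named above in capitals.
Mrpl43 promoter (chr19:45006393-45006692, minus strand): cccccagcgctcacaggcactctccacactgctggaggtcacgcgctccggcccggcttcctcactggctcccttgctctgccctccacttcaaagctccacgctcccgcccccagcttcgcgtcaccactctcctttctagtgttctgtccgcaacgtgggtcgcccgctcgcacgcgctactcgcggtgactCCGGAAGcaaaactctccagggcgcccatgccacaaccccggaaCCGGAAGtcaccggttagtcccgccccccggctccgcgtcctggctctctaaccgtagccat
Mrpl46 promoter (chr7:78783040-78783339, minus strand): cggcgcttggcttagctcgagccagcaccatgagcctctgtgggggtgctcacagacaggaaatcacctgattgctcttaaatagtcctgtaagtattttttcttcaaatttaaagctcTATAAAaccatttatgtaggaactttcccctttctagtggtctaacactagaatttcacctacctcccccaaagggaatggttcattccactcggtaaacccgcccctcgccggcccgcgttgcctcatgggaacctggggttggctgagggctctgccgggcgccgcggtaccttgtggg
Mrps12 promoter (chr7:28741772-28742071, minus strand): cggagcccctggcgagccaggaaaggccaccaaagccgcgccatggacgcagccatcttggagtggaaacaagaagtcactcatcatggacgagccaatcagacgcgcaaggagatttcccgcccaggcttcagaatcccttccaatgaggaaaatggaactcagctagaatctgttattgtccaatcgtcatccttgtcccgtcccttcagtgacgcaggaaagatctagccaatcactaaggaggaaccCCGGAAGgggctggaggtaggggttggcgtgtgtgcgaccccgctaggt
Mrpl32 promoter (chr13:14612988-14613287, minus strand): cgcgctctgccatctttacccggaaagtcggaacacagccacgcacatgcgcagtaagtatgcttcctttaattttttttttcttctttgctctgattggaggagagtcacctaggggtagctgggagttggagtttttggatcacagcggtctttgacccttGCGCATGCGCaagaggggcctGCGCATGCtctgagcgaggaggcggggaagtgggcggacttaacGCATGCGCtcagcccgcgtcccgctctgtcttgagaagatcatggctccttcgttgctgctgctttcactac
Mrps18a promoter (chr17:46110754-46111053, plus strand): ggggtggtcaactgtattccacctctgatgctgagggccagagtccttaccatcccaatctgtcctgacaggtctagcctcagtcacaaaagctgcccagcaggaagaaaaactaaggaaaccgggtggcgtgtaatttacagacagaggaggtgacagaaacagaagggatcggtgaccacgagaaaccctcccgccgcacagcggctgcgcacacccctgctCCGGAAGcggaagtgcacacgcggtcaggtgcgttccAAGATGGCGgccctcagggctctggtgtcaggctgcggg

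In the Mrpl43 window the ETS letters occur 56 and 12 bases before the start, and in Mrps12 they begin 1 base after it. The Mrpl46 window, which overlaps that of Mrps11, holds none of the ETS, NRF1 or YY1 letters, only TATAAA. Mrpl46 was among the members farthest apart. Mrpl32 has 4 NRF1 matches, and its levels of 53.6 and 53.3 RPKM were nearly equal in the 2 groups. A match is a string of letters and not a bound site.

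The mitoribosomal mRNAs are short. Their annotated coding transcripts (1 per gene, GENCODE M21) had a median length of 1284 bases and a median of 5 exons, against 2337.5 bases and 8 exons in 6416 genes of at least 10 RPKM. The pentamer GGACT, the commonest sequence context of N6-methyladenosine, was absent from 15 of the 76 transcripts (19.7%) and from 10.7% of the 6416, and its density was alike, with medians of 1.01 and 1.06 per kb. The 61 genes with the pentamer had a median log2 ratio of 0.24 and the 15 without it -0.05, against 0.04 and -0.01 over all genes of this level. The presence of the letters does not show that a transcript is methylated.

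Shared sequence limits some of these values. Exons of 23 members overlap exons of another coding gene, 20 of them on the other strand, and the sources used here do not say whether the authors counted by strand, so reads of such pairs cannot be told apart. Exons were pooled over all annotated transcripts of each gene, and any overlap counted, however short. Mrpl43 shares 507 bases of exon with Peo1. Mrps34 shares 763 with Nme3 on its own strand and 1309 with Mapk8ip3. The latter number exceeds the 918 bases of the Mrps34 transcript whose coordinates are given above, so it includes exons of other Mrps34 transcripts. Nme3 was at 61.5 and 75.2 RPKM and Mapk8ip3 at 8.97 and 14.6 RPKM. The 23 overlapping members had a median log2 ratio of 0.38 and the other 53 a median of 0.04, with 8 of the 53 (15.1%) higher by 1.5-fold or more, near the background of 13.0% and 13.3%, 1 lower by as much (1.89%, background 10.4% and 8.58%) and 0 past 2-fold. Genes of the background were not filtered for exon overlap. Mrpl16, Mrpl50 and Mrps2 have no such overlap in this annotation. Processed pseudogenes of some members exist, and the treatment of reads with several matches is not stated either.

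Mrpl43 and Mrps34 stand apart from the other members in the table's own order. Its first 365 rows (1.58% of the table) are out of the order of NCBI Gene numbers, which the other rows follow. Mrpl43 stands in row 14 and Mrps34 in row 135, so 2 of 76 members are among the opening rows. The other 74 are in the ordered part. Of the 365 genes 66.3% were at least 2-fold apart, against 1038 of the 14539 genes with reads. The opening rows thus went with the size of the difference, so a place among them is no separate evidence for these 2 members. The sources used here do not state by what the opening rows were chosen.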

How the data were processed

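RNA-seq was made from 150 sorted HSCs per library (3 control and 4 mutant, grouped by title), as paired reads of 100 bp. The values are the authors' deposited RPKM, 1 column per group per the file headers, so library totals and replicate spread are unknown. The submitters' processing notes name the build mm10 and, among tools, Picard and edgeR, without their roles; the aligner and the annotation are not given there.

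In 8499 genes both values were a fixed amount per column over a gene length (whole bases, to within 0.05), 0.0414 RPKM for 1 kb in the control column and 0.0349 RPKM in the mutant column. This was read as an added read, and those genes as without reads. On that reading 1 RPKM on 1 kb is 24.1 reads in controls and 28.7 in mutants, or 267 reads per kb for the lowest member in controls. Whether these are reads of an average library or of a whole group is unknown, since how libraries were combined is not stated. These are amplified reads, not molecules, and the spread between animals is unknown.

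Ratios were computed with Python 3.11.15 and pandas 2.3.3 at a pseudocount of 1 RPKM and the scripts tested on simulated data. Members with 10 RPKM in 1 group were named by rule: the 8 highest and 8 lowest log2 ratios, the 5 highest and 5 lowest control levels, and 7 by role; other named genes were picked after their values were seen, as were the head-to-head, exon overlap, GGACT and row order comparisons. Of other lists the highest and the lowest ratio are named. Members and lists were chosen with earlier results of these data known. Gene models are GENCODE M21 and promoters RefSeq GRCm38.p6, both of the assembly mm10 names; all 76 members matched by NCBI Gene number. Some cell type markers are not reported here.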

Additional observations from a re-analysis of the deposited data

How the results depend on the processing

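The median and the counts were recomputed with a pseudocount of 0.1 RPKM or none. They were also recomputed with the mutant column divided by the median ratio and with columns scaled to equal sums. Further settings were minimum levels, predicted genes left out and overlapping members left out. Minimum levels and leaving out predicted genes removed none of the 76 members, so their values were the same by construction. With these included, 51 values of the median and the counts stayed close to those reported (counts within 1.5 times) and 5 did not. The median kept its sign in every setting. Those 5 values are given next. Scaling to equal sums left 1 gene at least 1.5-fold lower in place of 2. Leaving out the 23 members with exon overlap, chosen after seeing the data, gave a median log2 ratio of 0.041, 8 genes higher by 1.5-fold or more, 1 lower by as much and 0 higher by 2-fold; fewer genes were counted. Each rescaling turned the sign of 1 gene, with a log2 ratio of at most 0.02 in size. No paired analysis was possible because each group has only its mean, and leaving out replicates was not run for the same reason.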
